A study of Mus musculus with 2 samples.

Results

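Trp53 and 9 of its target genes were described in mouse hindlimb muscle, 10 of the 44787 genes with values in the table. They were taken by name from the gene symbol of each row: Trp53, Mdm2, Cdkn1a, Ccng1, Bax, Bbc3, Pmaip1, Perp, Trp53inp1 and Sesn1. All 10 were found, each in 1 row, and all 10 reached 1 FPKM (a read count scaled by gene length and library size) in at least 1 library. The control library came from mice with the genotype SRSF2 flox/flox, and the knockout library from SRSF2 flox/flox MyoD-Cre mice, so both groups carried the floxed alleles and the knockout group alone carried Cre. Srsf2 encodes a serine- and arginine-rich splicing factor, and the MyoD-Cre allele drives Cre in cells of the myogenic lineage. The sources used here do not give the age or number of animals behind each library. Each genotype had 1 library, so there is no replicate check and no test below, "higher" and "lower" describe these 2 libraries, and loss of Srsf2 cannot be told apart from an effect of the Cre allele or from a difference between animals.

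The transcription factor p53, encoded by Trp53, is held at low levels by the ubiquitin ligase Mdm2 and is stabilised after DNA damage and other stress. It then activates genes that stop the cell cycle, such as Cdkn1a, genes that start cell death, such as Bax, Bbc3 and Pmaip1, and genes of the stress response and metabolism, such as Sesn1. Because Mdm2 is itself a target, the pathway carries a negative feedback loop. In muscle, Cdkn1a also accompanies the exit of myoblasts from the cell cycle during differentiation, and this can occur without p53. Most control of p53 acts on the protein, which these data do not measure.

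p53 binds DNA at a pair of decamers that each follow the p53 decamer consensus. RefSeq windows (GRCm38.p6) from 250 bases before to 50 bases after a transcription start were found for 7 of the 10 genes, 11 windows in all: Trp53, Mdm2, Cdkn1a, Ccng1, Bax, Bbc3 and Sesn1. Perp, Trp53inp1 and Pmaip1 had none in the table used. The decamer consensus reads the same on both strands, so 1 search covered both. A pair of decamers back to back with at most 1 mismatch in all was found in 2 of the 11 windows, in Cdkn1a and in Ccng1, against 29 of 32851 windows of all genes (0.0883%). With up to 13 bases between the decamers, Bax also held a pair, against 1.09% of all windows. These 3 windows are shown because Cdkn1a and Ccng1 were the target genes with lower values in the knockout library and Bax was a target on the other side. Capitals mark the pair of decamers in each.
Cdkn1a, chr17:29090729-29091028, plus strand: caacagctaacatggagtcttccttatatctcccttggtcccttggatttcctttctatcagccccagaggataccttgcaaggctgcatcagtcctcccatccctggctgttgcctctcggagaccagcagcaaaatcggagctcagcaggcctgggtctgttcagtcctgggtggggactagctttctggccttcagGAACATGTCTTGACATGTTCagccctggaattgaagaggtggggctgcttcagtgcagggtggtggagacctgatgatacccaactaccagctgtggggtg
Ccng1, chr11:40755237-40755536, minus strand: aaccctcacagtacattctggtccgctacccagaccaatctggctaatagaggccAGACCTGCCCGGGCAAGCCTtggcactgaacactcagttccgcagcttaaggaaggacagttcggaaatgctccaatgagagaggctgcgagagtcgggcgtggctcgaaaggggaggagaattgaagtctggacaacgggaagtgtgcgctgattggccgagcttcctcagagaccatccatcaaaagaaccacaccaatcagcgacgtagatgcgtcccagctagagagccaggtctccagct
Bax, chr7:45466849-45467148, minus strand: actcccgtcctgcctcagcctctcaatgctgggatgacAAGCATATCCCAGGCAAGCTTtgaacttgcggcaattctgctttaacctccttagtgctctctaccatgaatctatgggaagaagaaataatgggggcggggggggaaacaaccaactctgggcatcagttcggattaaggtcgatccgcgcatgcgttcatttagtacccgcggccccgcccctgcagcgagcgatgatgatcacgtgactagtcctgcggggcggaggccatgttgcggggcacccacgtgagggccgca

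In Cdkn1a the pair spans bases 51 to 32 before the upstream RefSeq start, and it lies 2822 bases before the other RefSeq start, whose own window held no match. The pair of Ccng1 spans bases 195 to 176 before its start, and that of Bax, with 1 base between the decamers, spans bases 212 to 192. A single decamer with no mismatch occurred in 6 of the 11 windows, those of Bax, Ccng1, Cdkn1a, Mdm2, Sesn1 and Trp53, against 8.36% of all windows. The windows of Bbc3 held none. A match is a run of letters only and no binding was measured.

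The 10 genes were split in direction, in shares close to those of all measured genes. Of the 10 genes, 7 had a ratio of knockout to control above 1 (73% of all measured genes did) and 3 a ratio below 1 (27% of all measured genes). The 7 were Mdm2, Bax, Bbc3, Pmaip1, Perp, Trp53inp1 and Sesn1, and the 3 were Trp53, Cdkn1a and Ccng1. A gene was measured when it reached 1 FPKM in at least 1 library, and 13175 genes were. By a rule of size, set at 1 or more in log2((knockout FPKM + 1)/(control FPKM + 1)), which is a 2-fold rule, 2 of the 10 were higher, Perp and Trp53inp1, against 2.68% of measured genes. None of the 10 was lower by this rule, against 0.744% of measured genes. Perp and Bbc3, at 0.947 and 0.809 FPKM in the control library, passed the filter through the knockout library alone. For Perp the filter thus favours a higher call. By a 4-fold rule Perp alone was higher, against 0.729% of measured genes, and no member was lower, against 0.0228%. Their median difference was 0.41 on that scale, with a range from -0.45 to 4.63.

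The median measured gene had a difference of 0.18 on that scale, and the median ratio of measured genes above 0 in both libraries, taken without a pseudocount, was 1.17. The members were therefore also set against these. By rank, 7 of the 10 lay above the median gene, as 50% of genes do by construction. Whole reads could be recovered from the FPKM values of all 10 genes, and each ratio has a 95% interval from those reads that covers counting error only. The intervals of 7 members lay above a ratio of 1 (51.1% of measured genes with recovered reads did), and those of 2, Cdkn1a and Ccng1, lay below it (13.1%). Against the median ratio of 1.17, 6 intervals lay above (28% of genes), 3 lay below (27.7%), and that of Bax included it. The share of higher genes among all genes past the rule of size was 78.3% as deposited and 59.4% after median-of-ratios scaling.

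**Figure D1:**
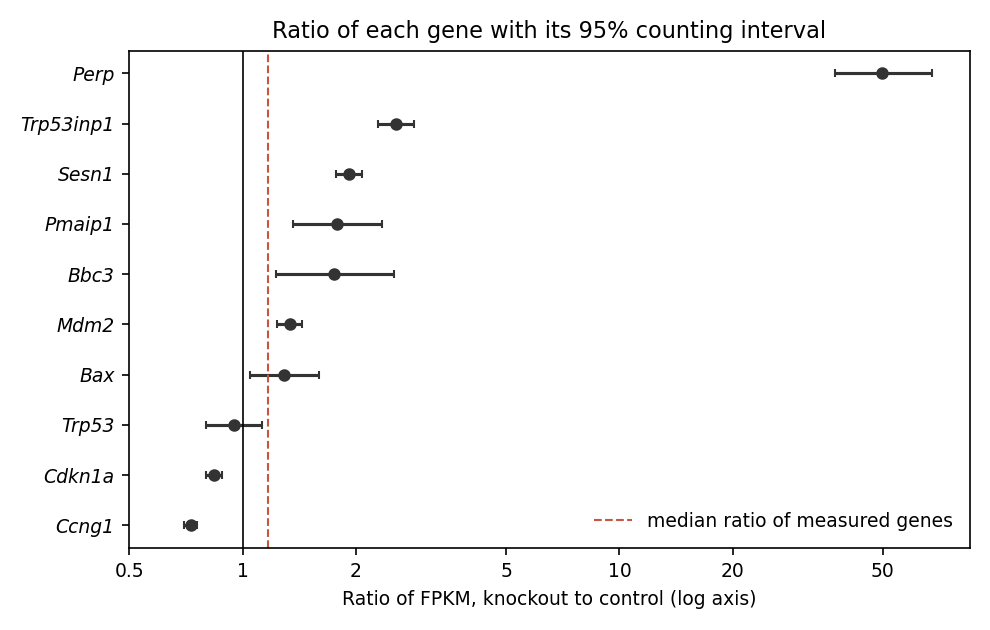
Ratio of FPKM, knockout to control, for each of the 10 genes on a log axis, with points for the ratio and bars for the 95% exact interval of counting error. The solid line marks 1 and the dashed line the median ratio of measured genes, 1.17: Ccng1, Cdkn1a and Trp53 lie to its left, the interval of Bax includes it, and Perp stands far to the right at 49.7.

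Of the regulators, Trp53 had near equal levels and Mdm2 a higher one in the knockout library. Trp53 (chromosome 11, 69580359 to 69591873, plus strand) had 4.79 FPKM in the control and 4.55 FPKM in the knockout library, from 275 recovered reads in each. The ratio was 0.950 (0.801 to 1.13), an interval that includes 1 and leaves out the median ratio. Wrap53, which starts 114 bases away on the other strand and was named after its values were seen, had 1.43 and 2.08 FPKM in the same order, and since the strand setting is not given, reads near this shared border cannot be assigned with certainty.

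Mdm2 (chromosome 10, 117688905 to 117710716, minus strand), the ubiquitin ligase that targets p53 for degradation, had 21.0 FPKM in the control and 28.1 FPKM in the knockout library. Its ratio of 1.33 (1.24 to 1.44) rested on 1144 and 1607 reads, and its interval lay above the median ratio. Its paralog Mdm4, which binds and inhibits p53 without degrading it, lay on the other side, with 9.23 FPKM in the control library, 8.11 FPKM in the knockout library and a ratio of 0.878 (0.821 to 0.940). The intervals of Mdm2 and Mdm4 did not overlap.

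Both cell cycle genes had lower values in the knockout library. Cdkn1a, the inhibitor p21 of cyclin-dependent kinases, had the highest level of the 10 genes in both libraries, 61.7 FPKM in the control and 51.7 FPKM in the knockout library. The ratio was 0.839 (0.797 to 0.883), from 3182 and 2811 reads, and 89.6% of measured genes had a higher difference. The table places Cdkn1a not on chromosome 17 but on the scaffold nt_187005, at 1792654 to 1799619, as 1 of 46 genes on that scaffold. The sources used here do not say how reads that match both the scaffold and the chromosome were treated. The same placement holds for both libraries. In GENCODE M21, AC167363.2 overlaps Cdkn1a on the other strand, and with the strand setting unknown its reads cannot be told apart from those of Cdkn1a.

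Ccng1 (chromosome 11, 40748552 to 40755314, minus strand) encodes cyclin G1, a target of p53 that acts on Mdm2 through a protein phosphatase. It had 60.1 FPKM in the control and 43.7 FPKM in the knockout library, from 5585 and 4278 reads. Its ratio of 0.728 (0.699 to 0.757) was the lowest of the 10 genes, and 95.3% of measured genes had a higher difference. Ccng2, the paralog that encodes cyclin G2, had the opposite direction, with 9.57 FPKM in the control and 14.8 FPKM in the knockout library.

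**Figure D2:**
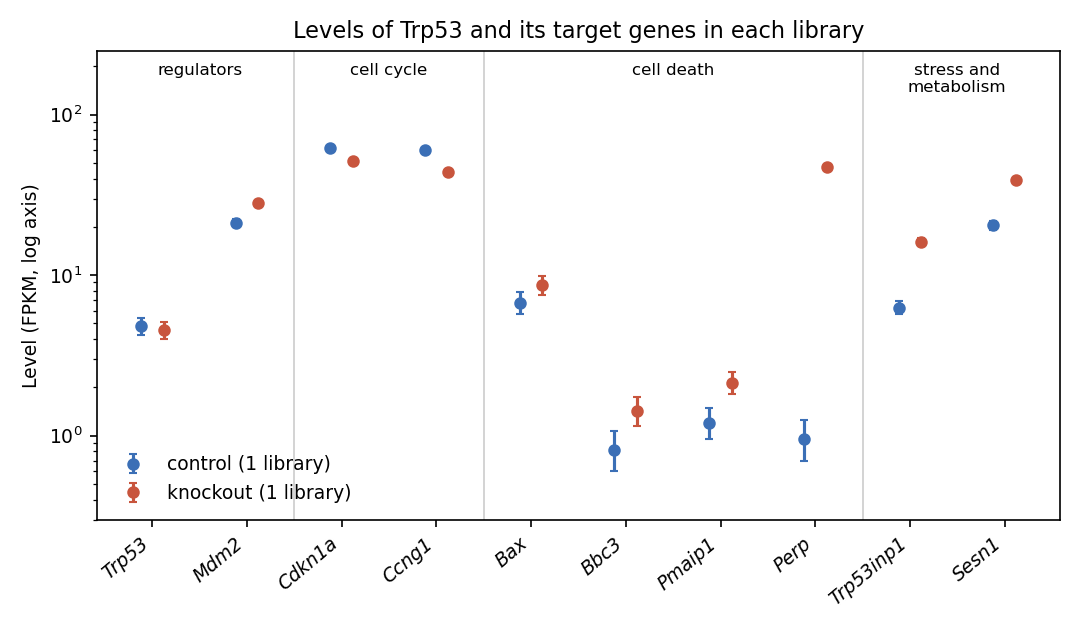
Level of each gene in the control library (blue) and the knockout library (red) in FPKM on a log axis, ordered by role, with bars for the 95% exact Poisson interval of the reads. Cdkn1a and Ccng1 lie lower in the knockout library, Trp53 is near equal at 4.79 and 4.55 FPKM, and Perp goes from 0.947 to 47.1 FPKM.

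The 3 genes of the mitochondrial death pathway had low levels and higher values in the knockout library, with none past the 2-fold rule. Bax (chromosome 7, 45461700 to 45466899, minus strand), which forms pores in the outer mitochondrial membrane, had 6.73 FPKM in the control and 8.69 FPKM in the knockout library. Its ratio was 1.29 (1.05 to 1.598), from 156 and 212 reads. In GENCODE M21 the gene Gm45808 overlaps Bax on the same strand, so reads of the 2 genes may be shared.

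Bbc3 (chromosome 7, 16312885 to 16318205, plus strand) encodes PUMA, and Pmaip1 (chromosome 18, 66458604 to 66465558, plus strand) encodes NOXA. Both are BH3-only proteins, which bind anti-apoptotic members of the Bcl2 family. Bbc3 had 0.809 FPKM in the control and 1.42 FPKM in the knockout library, a ratio of 1.75 (1.23 to 2.52) from 50 and 92 reads. Pmaip1 had 1.20 FPKM in the control and 2.14 FPKM in the knockout library, a ratio of 1.78 (1.36 to 2.34) from 85 and 159 reads. With so few reads their intervals are wide, and the intervals of Bax, Bbc3 and Pmaip1 overlapped one another.

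Perp (chromosome 10, 18845071 to 18857073, plus strand) stood far from the other 9 genes. It encodes a tetraspan membrane protein that is known both as a p53 target in dying cells and as a component of desmosomes in stratified epithelia, where it is a target of p63. It had 0.947 FPKM in the control library, from 48 reads, and 47.1 FPKM in the knockout library, from 2513 reads. The ratio was 49.7 (37.4 to 67.6), and only 12 of the 13175 measured genes had a higher difference. The summed level of all 10 genes was 184 FPKM in the control and 243 FPKM in the knockout library, a ratio of 1.32. Without Perp it was 183 and 196 FPKM, a ratio of 1.07.

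Markers of skin keratinocytes were high in the same library as Perp. Of 14 keratinocyte markers, 3 reached 1 FPKM in the control and 13 in the knockout library. All 13 measured markers were higher by the 2-fold rule, and 10 of them passed the filter through the knockout library alone. The 14 markers had single levels from 0 to 3.89 FPKM in the control and from 0.0273 to 906 FPKM in the knockout library. Their summed level was 10.6 and 2131 FPKM in that order, a ratio of 200.5, and Krt2, named after its values were seen and listed at 0 in the control library, was the only marker at 0. Krt1 and Krt10, keratins of differentiated epidermal cells, had ratios of 269 (231 to 316) and 233 (204 to 267). In bulk tissue, more cells of a type and more RNA per cell cannot be told apart. The part of keratinocyte RNA in the values of Perp and of the other 9 genes was not tested.

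Several desmosome genes, the partners of Perp in epithelia, were higher with it. Of 11 desmosome genes, only 1, Jup, reached 1 FPKM in the control library, against 7 in the knockout library. Thus 6 of the 7 measured genes passed the filter only through the library where they were high, and all 6 were higher by the rule, a count that the filter favours. The 4 genes under 1 FPKM in both libraries, all named after their values were seen, were Dsg2, Dsg3, Pkp2 and Dsc2. Pkp2, plakophilin 2, and Dsc2, desmocollin 2, had ratios of 1.32 (0.794 to 2.23) and 1.54 (0.593 to 4.297), intervals that include 1. Dsg2 had 0.0262 FPKM in the control and 0.566 FPKM in the knockout library, a ratio of 21.6 (8.16 to 81.0) from 4 control reads. Dsg3 was listed at 0 in the control and at 0.616 FPKM in the knockout library. The summed level of all 11 genes was 4.35 FPKM in the control and 71.6 FPKM in the knockout library. Dsp, desmoplakin, had 0.231 FPKM in the control and 35.1 FPKM in the knockout library, a ratio of 152 (118 to 200). Pkp1, plakophilin 1, had a ratio of 191 (92.4 to 476) and Dsc3, desmocollin 3, of 138 (59.0 to 427). Pkp3, plakophilin 3, had a ratio of 29.2 (11.1 to 109) from 4 control reads, and Dsc1, desmocollin 1, had 6.85 FPKM in the knockout library against 1 read in the control library. Jup, plakoglobin, which is also present at junctions outside the epidermis, was the measured gene short of the rule, with a ratio of 1.76 (1.57 to 1.97). The interval of Perp lay below those of Dsp, Pkp1, Krt1 and Krt10 and overlapped those of Dsc3 and Pkp3.

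**Figure D3:**
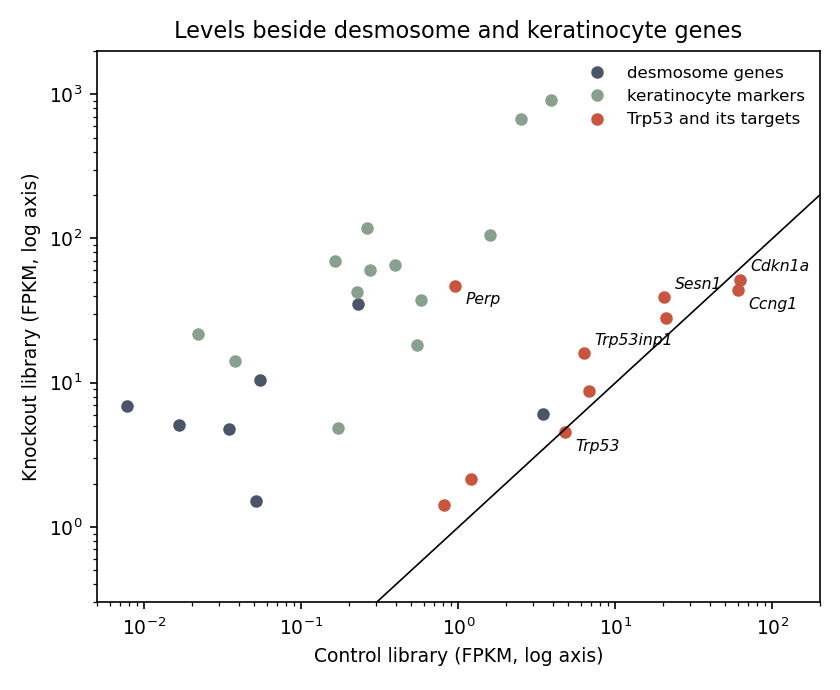
Level in the knockout library against level in the control library, both in FPKM on log axes, for the 10 genes (red), measured desmosome genes (dark grey) and measured keratinocyte markers (green). The line marks equal levels: Perp, at 0.947 and 47.1 FPKM, lies among the epithelial genes and the other 9 genes lie near the line.

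The 2 genes of stress and metabolism had the highest ratios after Perp, but the intervals of both overlapped those of Bbc3 and Pmaip1. Trp53inp1 (chromosome 4, 11156441 to 11174377, plus strand) encodes a stress-induced protein that acts in p53 phosphorylation and in autophagy. It had 6.29 FPKM in the control and 16.0 FPKM in the knockout library, from 455 and 1221 reads. The ratio was 2.55 (2.29 to 2.85), with 1.74% of measured genes showing a higher difference. Its paralog Trp53inp2, a regulator of autophagy that is abundant in skeletal muscle, lay on the other side, with 14.7 FPKM in the control library, 10.8 FPKM in the knockout library and a ratio of 0.734 (0.685 to 0.788). The interval of Trp53inp2 may be too narrow, since the length recovered with its reads, 4664 bases, exceeded the span of the gene.

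Sesn1 (chromosome 10, 41810574 to 41908436, plus strand) encodes sestrin 1, which inhibits the growth kinase complex mTORC1 when amino acids are scarce. It had 20.5 FPKM in the control and 39.2 FPKM in the knockout library, from 869 and 1752 reads. Its difference of 0.91 was just short of the 2-fold rule, and it was the third member, with Perp and Trp53inp1, past a 1.5-fold rule (9.15% of measured genes were higher by it, and 2.91% lower, which no member was). The ratio was 1.92 (1.76 to 2.08), and 3.26% of measured genes had a higher difference. The other sestrins were also higher, Sesn2 with 0.226 FPKM in the control and 1.43 FPKM in the knockout library, a ratio of 6.35 (3.74 to 11.5), and Sesn3 with 3.55 and 5.71 FPKM, a ratio of 1.61 (1.25 to 2.08). In GENCODE M21, 9930024M15Rik overlaps Sesn1 on the same strand, so their reads may be shared. Sesn3 lies outside the naming rule and was named after its values were seen.

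**Figure D4:**
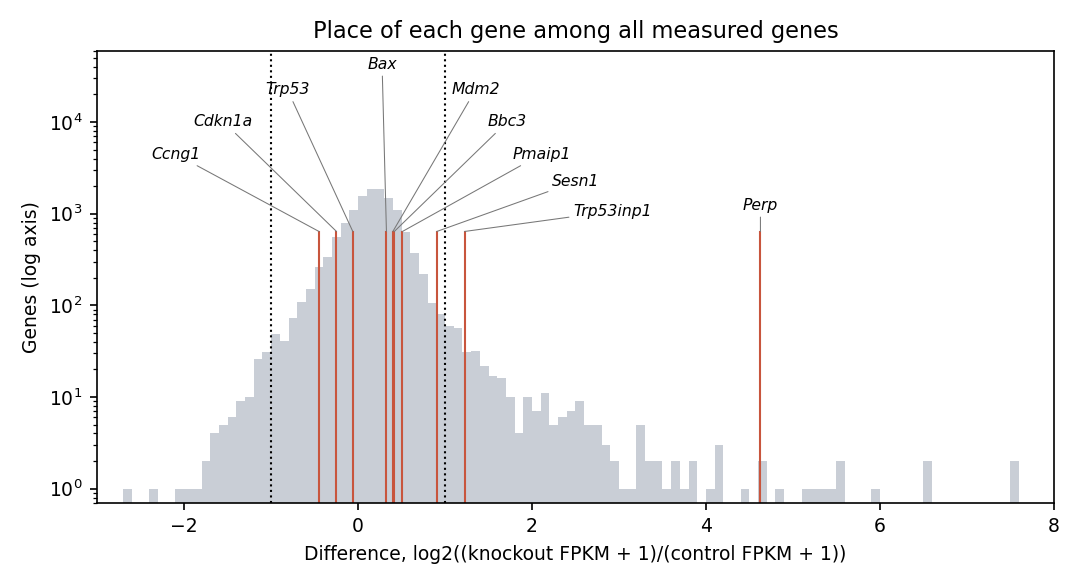
Histogram of the difference of all 13175 measured genes, with the count of genes on a log axis and red lines at the 10 genes. Dotted lines mark the 2-fold rule on either side: Perp at 4.63 and Trp53inp1 at 1.22 lie past it, Sesn1 at 0.91 lies just short of it, and Ccng1 at -0.45 is the lowest.

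Ordered by level, the control library had Cdkn1a and Ccng1 at the top, followed by Mdm2 and Sesn1, then Bax and Trp53inp1, then Trp53, and last Pmaip1, Perp and Bbc3. Within each of these sets, neighbours had overlapping counting intervals. In the knockout library the order was Cdkn1a, Perp, Ccng1, Sesn1, Mdm2, Trp53inp1, Bax, Trp53, Pmaip1 and Bbc3, and no neighbours overlapped. Perp went from place 9 to place 2, and Bbc3 was last in both.

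Other genes of the p53 pathway were read from lists. Of 20 regulators and relatives of p53, 17 were measured and none passed the 2-fold rule in either direction, with a median difference of 0.31 against 0.18 for all measured genes. This count depends on the pseudocount of 1 FPKM: with 0.1 FPKM, 2 were higher. The share of all measured genes with 0.1 FPKM was not computed. The highest were Trp63, the p63 gene of stratified epithelia, Chek1, a checkpoint kinase of replication stress, and Crebbp, an acetyltransferase and coactivator. Trp63 had 1.95 FPKM in the control and 4.12 FPKM in the knockout library, a ratio of 2.12 (1.84 to 2.45). The ratio of Chek1 was 2.62 (1.98 to 3.50) and that of Crebbp 1.55 (1.47 to 1.63). Chek1, at 0.762 FPKM in the control library, passed the filter through the knockout library alone. At the low end were Mdm4, given above, and the damage kinases Atr at 0.913 (0.794 to 1.05) and Atm at 1.02 (0.901 to 1.15). Cdkn2a, whose ARF product inhibits Mdm2 and which was named after its values were seen, was listed at 0 in the control library and at 0.0767 FPKM in the knockout library.

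Of 21 other targets of arrest, repair and metabolism, 19 were measured, 1 was higher by the rule and none was lower, with a median difference of 0.22. With a pseudocount of 0.1 FPKM, 3 were higher, with no share of all measured genes to set beside them. The 1 gene was Sfn, which encodes 14-3-3 sigma, a p53 target that is also abundant in the epidermis. It had 1.84 FPKM in the control and 11.02 FPKM in the knockout library, a ratio of 6.001 (4.73 to 7.71). Sesn2, given above, and Plk3, a stress-responsive Polo kinase with a ratio of 2.85 (2.07 to 3.98), came next. The lowest were Tigar, a regulator of glycolysis listed under an older symbol, at 0.497 (0.354 to 0.691), Phlda3, an inhibitor of Akt, at 0.727 (0.620 to 0.851), and Psrc1, a spindle protein, at 0.917 (0.624 to 1.35). Sesn2 and Plk3, at 0.226 and 0.824 FPKM in the control library, passed the filter through the knockout library alone. Tigar, at 0.556 FPKM in the knockout library, passed it through the control library alone. Gdf15, a secreted stress factor named after its values were seen, was listed at 0 in the control and at 0.130 FPKM in the knockout library.

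Of 10 other targets of cell death, 8 were measured and none passed the rule, with a median difference of 0.33. Siva1, a pro-apoptotic adaptor, had 13.2 FPKM in the control and 24.2 FPKM in the knockout library, a ratio of 1.83 (1.49 to 2.27). The receptors Eda2r and Fas had ratios of 1.82 (1.21 to 2.79) and 1.704 (1.24 to 2.36). Tnfrsf10b, another death receptor, had a ratio of 0.846 (0.638 to 1.12), Aen, a nuclease, 1.09 (0.914 to 1.31), and Apaf1, the scaffold of the apoptosome, 1.16 (1.03 to 1.31). Of 11 other Bcl2 family genes, 9 were measured and none passed the rule, with a median difference of 0.23. Bok, Bcl2l11 (BIM) and Bmf had the highest differences of that list, with ratios of 2.002 (1.48 to 2.73), 1.61 (1.47 to 1.76) and 1.31 (1.17 to 1.48). Bcl2l2, Bak1 and Bad had the lowest, with ratios of 1.02 (0.954 to 1.09), 1.14 (1.01 to 1.28) and 1.20 (0.992 to 1.46). The intervals of Bcl2l11 and Bcl2l2 may be too narrow. The lengths recovered with their reads, 10198 and 8876 bases, exceeded the spans of these genes.

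Of 17 cyclins, their kinases and other inhibitors, 16 were measured and none passed the rule, with a median difference of 0.30 against 0.18 for all measured genes. All 16 had a ratio above 1 as deposited, but 12 of the 16 lay above the median gene, and the D cyclins Ccnd1, Ccnd2 and Ccnd3 had ratios below 1 after median-of-ratios scaling, 0.938 for Ccnd2. Ccnd3 was named after its values were seen. Cdk1, the kinase of mitotic entry, Pcna, the replication clamp that p21 also binds, and Cdk4, a kinase of the early cell cycle, were the highest. Their ratios were 1.74 (1.55 to 1.97), 1.48 (1.43 to 1.54) and 1.48 (1.34 to 1.63). The interval of Pcna may be too narrow, since the length recovered with its reads, 7560 bases, exceeded the span of the gene. The lowest were the cyclins Ccnd1 at 1.05 (0.968 to 1.13), Ccnd2 at 1.09 (1.01 to 1.18) and Ccne2 at 1.17 (0.784 to 1.76). Cdkn1c, the p57 paralog of p21, was the most abundant of these genes, with 578 FPKM in the control and 689 FPKM in the knockout library, and its reads could not be recovered. Among 9 paralogs of the members, 8 were measured and none passed the rule, with a median difference of 0.48. While 2 paralogs were higher with a pseudocount of 0.1 FPKM, the share of all measured genes was not computed. Ratios near 1 in these lists depend on the scaling: those of Atm, Aen, Apaf1, Bcl2l2 and Bak1 were above 1 as deposited and below 1 after median-of-ratios scaling.

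**Figure D5:**
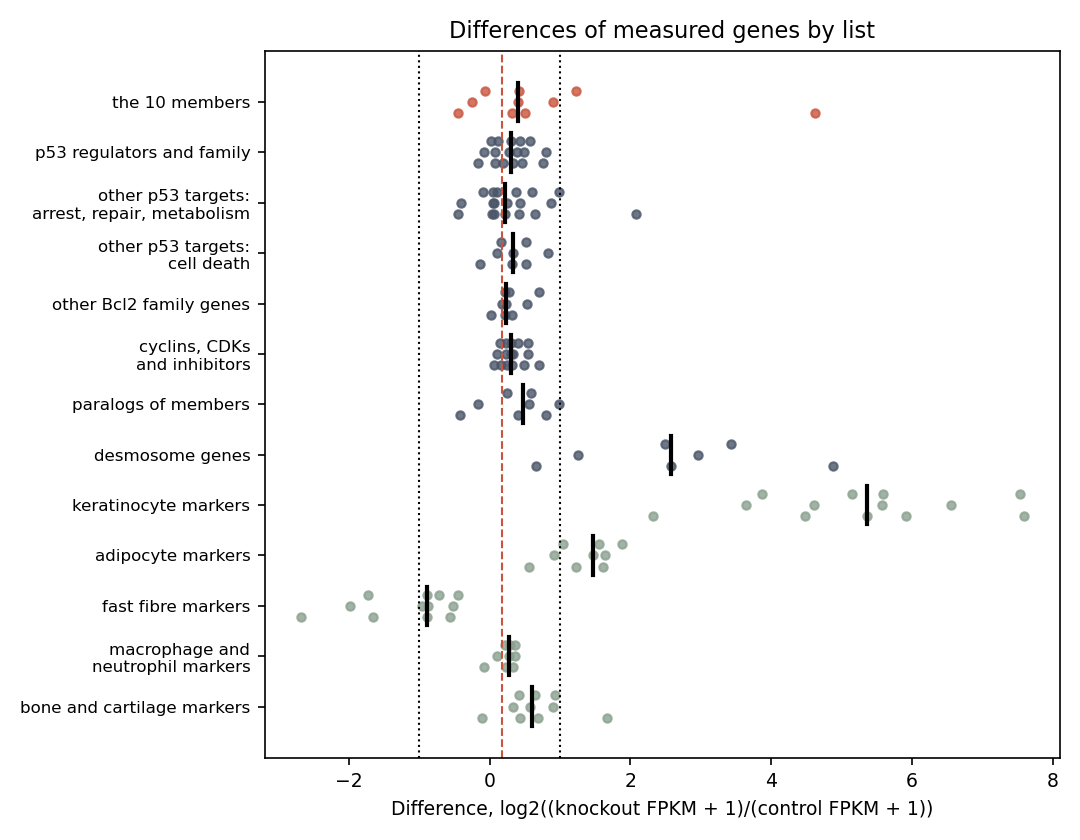
Difference of every measured gene by list, with a black bar at the median of each list, for the 10 genes (red), pathway lists (dark grey) and cell type markers (green). The dashed line marks the median gene at 0.18 and dotted lines the 2-fold rule: pathway lists other than desmosome genes lie around the median gene, and keratinocyte and fast fibre markers lie at opposite ends.

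Taken once each, 79 pathway genes other than the 10 were measured, and 7 of them were higher by the rule and none lower. Of the 7, 6 were the desmosome genes that passed the filter through the knockout library alone. Without the desmosome list, 1 of 72 was higher. For these counts and those of the marker lists, the shares of all measured genes were 2.68% higher and 0.744% lower. The RNA came from hindlimb muscle per the labels, and all 12 fast fibre markers were above 1 FPKM in both libraries. Their summed level was 18311 FPKM in the control and 10841 FPKM in the knockout library, a ratio of 0.592, and 4 of the 12 were lower by the rule. Adipocyte markers had summed levels of 302 and 629 FPKM in the same order, with 7 of 9 measured markers higher by the rule and 2 short of it. Bone and cartilage markers had 563 and 1081 FPKM, with 1 of 10 higher, Dmp1. Macrophage and neutrophil markers had 59.6 and 71.0 FPKM with none of 9 past the rule, and Ly6g, named after its values were seen, was listed at 0 in both. The part of these cell types in the values of the 10 genes was not tested. Srsf2 had 31.1 FPKM in the control and 19.4 FPKM in the knockout library, a direction that goes with the labels. Its ratio was 0.624 (0.583 to 0.666), and its difference of -0.65 was short of the 2-fold rule. Total reads were 69422626 and 76702198, of which 81.4% and 80.0% were mapped.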

How the data were processed

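RNA of mouse hindlimb muscle was sequenced from 1 control and 1 knockout library, grouped by the genotype labels. The authors deposited FPKM values per gene, used here as deposited. Bowtie 0.12.2 and mm9 are listed, with no role, in the submitters' processing notes, but the positions in the table are those of GRCm38. The sources used here do not name the counter, the annotation or the strand setting.

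FPKM ratios of low genes are fixed at 0.95007 times ratios of whole numbers, which sets the denominators to 26659452 (control) and 28060573 (knockout) reads. Reads were recovered as the smallest whole numbers that fit both FPKM values and a whole gene length, for 12613 of 13175 measured genes (95.7%) and all 10 members. The true reads may be a multiple of these, and intervals would then be narrower. They may also be fewer, with wider intervals, since the whole gene length that was recovered was too long for some genes. Pcna had 7560 bases by this step but spans 132249286 to 132253180 on chromosome 2. The lengths of Bcl2l11, Bcl2l2 and Trp53inp2 also exceeded the spans of these genes. Among the members, Bbc3 had 2317 bases, against 1814 for its longest GENCODE M21 transcript. Intervals of ratios are exact Clopper-Pearson intervals and those of levels exact Poisson intervals, at 95%. Without molecular identifiers, reads are not independent molecules, and both cover counting error only.

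The pseudocount was 1 FPKM, which understates differences of low genes. The steps were run on simulated data, made from the recovered lengths and reads with counting error only. Such data cannot show whether a recovered length is too long, or error beyond counting. The named genes are the 10 members, Srsf2, the 3 highest and 3 lowest measured genes of each of 7 pathway lists, and up to 3 of the most abundant of each of 5 marker lists. Genes outside this rule are marked where they are named, apart from annotated neighbours that overlap a member. Members and lists were chosen with earlier results of these data known. No search for genes of like pattern was made over 2 libraries. Alternatives were the pseudocount, the filter, 3 scalings and the fold of the rule. Figures were drawn with matplotlib 3.10.9 and values computed with pandas 2.3.3, scipy 1.17.1 and numpy 2.4.6 in Python 3.11.15. The p53 motif search and 4 further alternatives were chosen after the data were seen.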

Additional observations from a re-analysis of the deposited data

How the results depend on the processing

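No paired analysis was possible because control and knockout were 1 library each, and for the same reason none could be left out. The 2 members higher by the rule of size were 1 with a 4-fold rule, and stayed 2 with a pseudocount of 0.1 FPKM and under the 3 scalings. When a counting interval that excludes 1 was used instead, an alternative chosen after the data were seen, 7 members were higher and 2 lower. Of measured genes with recovered reads, 51.1% were higher and 13.1% lower in this way. The 7 pathway genes higher by the rule were 11 with a pseudocount of 0.1 FPKM, 17 with a 1.5-fold rule and 1 without the desmosome list, the last chosen after the data were seen. Of all measured genes, 9.15% were higher by the 1.5-fold rule, and the share with a pseudocount of 0.1 FPKM was not computed. A fold, a smaller pseudocount or a dropped list changes the counts by construction. With a pseudocount of 1 FPKM, for example, Sesn2 had a ratio of 6.35 but a difference of 0.99. The cause of the change with the counting interval was not tested. The 3 scalings multiply every knockout value by nearly the same factor, 0.858 to 0.861, so they act as 1 alternative and say little about stability. The ratio was 0.720 for Cdkn1a, 0.625 for Ccng1, 0.815 for Trp53 and 1.15 for Mdm2 with median of ratios. Bbc3 at 50 reads and Perp at 48 reads in the control library set the widest intervals.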

Other observations

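Trp53cor1, the long noncoding RNA also known as lincRNA-p21, is a p53 target next to Cdkn1a and was named after its values were seen. It is placed on the same scaffold as Cdkn1a, on the minus strand, and stayed under 1 FPKM in both libraries. It had 0.468 FPKM in the control and 0.192 FPKM in the knockout library, a ratio of 0.411 (0.213 to 0.757) from 37 and 16 reads. Its direction was that of Cdkn1a and of 27% of all measured genes.

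Ppm1d, the phosphatase WIP1 that dephosphorylates p53 and is itself a p53 target, was also named after its values were seen. It had 4.77 FPKM in the control and 8.07 FPKM in the knockout library, a ratio of 1.69 (1.49 to 1.93). This was on the same side of 1 as Mdm2 and as 73% of all measured genes.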
